A study of Mus musculus with 8 samples.

Results

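Fibroblast growth factors (FGFs) are secreted proteins that bind receptor tyrosine kinases on neighbouring cells, and the 10 genes described here are the ligands *Fgf3*, *Fgf8*, *Fgf9*, *Fgf10* and *Fgf15*, the kinase receptors *Fgfr1* to *Fgfr4* and the receptor *Fgfrl1*. They were chosen by name, as FGF ligands and receptors of the early heart region and its surroundings, and all 10 were among the 48526 genes of the count table. Transcripts were measured by RNA sequencing on both sides of the heart field of 4 male C57bl6/J mouse embryos of wild-type genotype, named L29-3, L43-5, L46-8 and L49-3, all at stage E8.5f, which gave 8 libraries. Each library came from 1 side of 1 embryo, with no pooling. The dissected piece reached from the level under the headfolds as far as somite 2, and neither the heart itself nor dorsal tissue was meant to be in it. The labels name no mutant allele and no treatment for any of them. Left and right were therefore compared within embryos, to ask whether the 2 sides of the heart field differ in FGF transcripts at this stage.

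FGF ligands bind their receptors together with heparan sulphate, and the occupied receptor signals mainly through RAS and the kinase ERK, which switches on both target genes and inhibitors of the pathway itself. In the embryo, *Fgf8* and *Fgf10* are made in the second heart field, the pool of progenitors that is added to the poles of the heart tube, and *Fgf8* is also known as a gene needed for normal left-right patterning in the mouse. *Fgf3* and *Fgf15* are both made in the pharyngeal region and in the hindbrain or neural tube, and *Fgf15* is the mouse counterpart of human FGF19. *Fgfr1* and *Fgfr2* encode the receptors of most mesoderm and epithelium, whereas FGFRL1 binds ligands but has no kinase domain.

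The positions are those of the GRCm38 mouse genome with the GENCODE M21 annotation, and all members are protein-coding genes. *Fgf3* (chr7:144838083-144844436, plus strand) and *Fgf15* (chr7:144896531-144900953, plus strand) are near neighbours, with 52094 bases between them. The other ligands lie apart, *Fgf8* at chr19:45736798-45742915 on the minus strand, *Fgf9* at chr14:58070547-58112720 on the plus strand and *Fgf10* at chr13:118669791-118792115 on the plus strand. The receptors are on 4 chromosomes, with *Fgfr1* at chr8:25513654-25575718 and *Fgfr4* at chr13:55152640-55168759, both on the plus strand, and *Fgfr3* at chr5:33721674-33737068 and *Fgfrl1* at chr5:108692382-108706924, also on the plus strand. *Fgfr2* is annotated from 130162451 to 133123350 on the minus strand of chromosome 7, a span that holds many other genes and shares 314 exon bases with *Ctbp2* on the same strand, so reads in that stretch cannot be given to either gene with certainty.

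Promoter sequences from RefSeq (build GRCm38.p6) were matched by symbol for 7 of the 10 members, *Fgf3*, *Fgf9*, *Fgf10*, *Fgfr2*, *Fgfr3*, *Fgfr4* and *Fgfrl1*, as the 250 bases before an annotated start site. The windows of *Fgf3*, the ligand with the largest fitted side difference, and of *Fgfrl1*, the receptor with the smallest, are shown because they lie near the extremes of CG content among the members. Capitals mark CG pairs. Both windows read 5′ to 3′ on the plus strand and lie inside the GENCODE span of their gene, since the RefSeq start site is downstream of the first GENCODE one.
Fgf3, chr7:144838362-144838611: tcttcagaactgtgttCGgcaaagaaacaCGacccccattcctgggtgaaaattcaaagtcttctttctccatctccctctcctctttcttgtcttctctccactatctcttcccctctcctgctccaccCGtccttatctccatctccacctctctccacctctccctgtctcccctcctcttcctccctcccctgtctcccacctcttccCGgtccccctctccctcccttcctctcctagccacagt
Fgfrl1, chr5:108693979-108694228: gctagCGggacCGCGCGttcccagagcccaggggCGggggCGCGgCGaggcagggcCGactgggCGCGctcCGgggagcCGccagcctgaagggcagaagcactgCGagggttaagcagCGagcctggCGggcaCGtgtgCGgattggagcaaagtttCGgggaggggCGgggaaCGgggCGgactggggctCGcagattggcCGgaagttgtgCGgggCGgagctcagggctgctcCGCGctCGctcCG
The *Fgf3* window had 4 CG pairs, and the *Fgfrl1* window had 30 CG pairs. Over the 32851 promoter windows of the table the median was 6 CG pairs and the upper quartile 16. *Fgfr2* had 2 pairs, *Fgf10* had 8, *Fgf9* had 11, *Fgfr4* had 15, and both windows of *Fgfr3*, with 19 and 24, lay above the upper quartile like that of *Fgfrl1*. On either strand, the motif letters GGTGTGA (T-box site, in 3.33% of all windows), AATCCACA (FOXH1, in 0.718%) and AGGTCA (retinoic acid response site, in 14% of windows) were not found in any of the 8 member windows, which says only that these letters are not there.

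After the removal of duplicates the libraries held between 1147446 and 3520753 counted reads, so the less abundant members rested on few reads. All 9 second heart field markers passed the filter on low counts, as did 8 of 9 foregut endoderm markers, and their summed levels ranged from 455 to 699 and from 261 to 321 CPM (counts per 1000000 reads on tested genes). Although the heart had been removed, 9 cardiomyocyte markers summed to between 419 and 3579 CPM on the left. On the right they summed to between 1227 and 3293 CPM, and the left library of L49-3 was the lowest. Of these 9 markers 8 passed the filter on low counts, and the remaining one, *Nppa*, had 1 read in all. Neural tube markers summed to between 87.7 and 359 CPM on the left and between 163 and 439 CPM on the right, lowest in the left library of L46-8, and all 7 that could be tested had lower fitted levels on the left, with *Sox1* (log2 difference −0.98) and *Pax6* (−0.83) past the threshold described next. In the left library of L43-5 the second heart field markers were at their lowest, 455 CPM.

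Between the sides, 1 of the 10 members changed at the threshold of the study, an unadjusted p of at most 0.05 with a fold of at least 1.2. This was *Fgf3*, which was higher on the left. The test was edgeR's quasi-likelihood test, blocked by embryo and run on the 9744 genes with at least 20 normalized counts in at least 4 libraries. The study listed genes past this threshold with limma-voom, DESeq2 or edgeR, whereas the counts given here are from edgeR alone unless another tool is named. A normalized count is the read count divided by the library's size factor. Of the 10 members 8 were tested, and *Fgf9* and *Fgfr4* were too low. Past the threshold were 297 genes, or 3.05% of those tested, and 1.63% were past it with a higher level on the left, beside 1 of the 8 tested members (12.5%). After Benjamini-Hochberg adjustment in the same edgeR test, none of the 8 members and 0.0103% of all genes had an adjusted p under 0.05. DESeq2 and limma-voom also gave none of the 8. An unadjusted p under 0.05 in edgeR was found for 1 of the 8 tested members (12.5%), beside 4.36% of all tested genes. The fitted level was higher on the left for 4 members and lower for 4 (among the latter, *Fgfrl1* turned positive with library size alone as scaling), and the median log2 difference was 0.04, beside −0.00 for all tested genes. The left and right normalized counts overlapped for all 10 members, while 2.51% of all tested genes had sides that did not overlap. Of the tested members 1, *Fgf10*, lay in the same direction in all 4 embryos (12.5%), beside 12.4% of all tested genes, so this share was close to the background. In tissue pieces of this kind, fewer cells that make a transcript and less transcript per cell cannot be told apart.

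**Figure D1:**
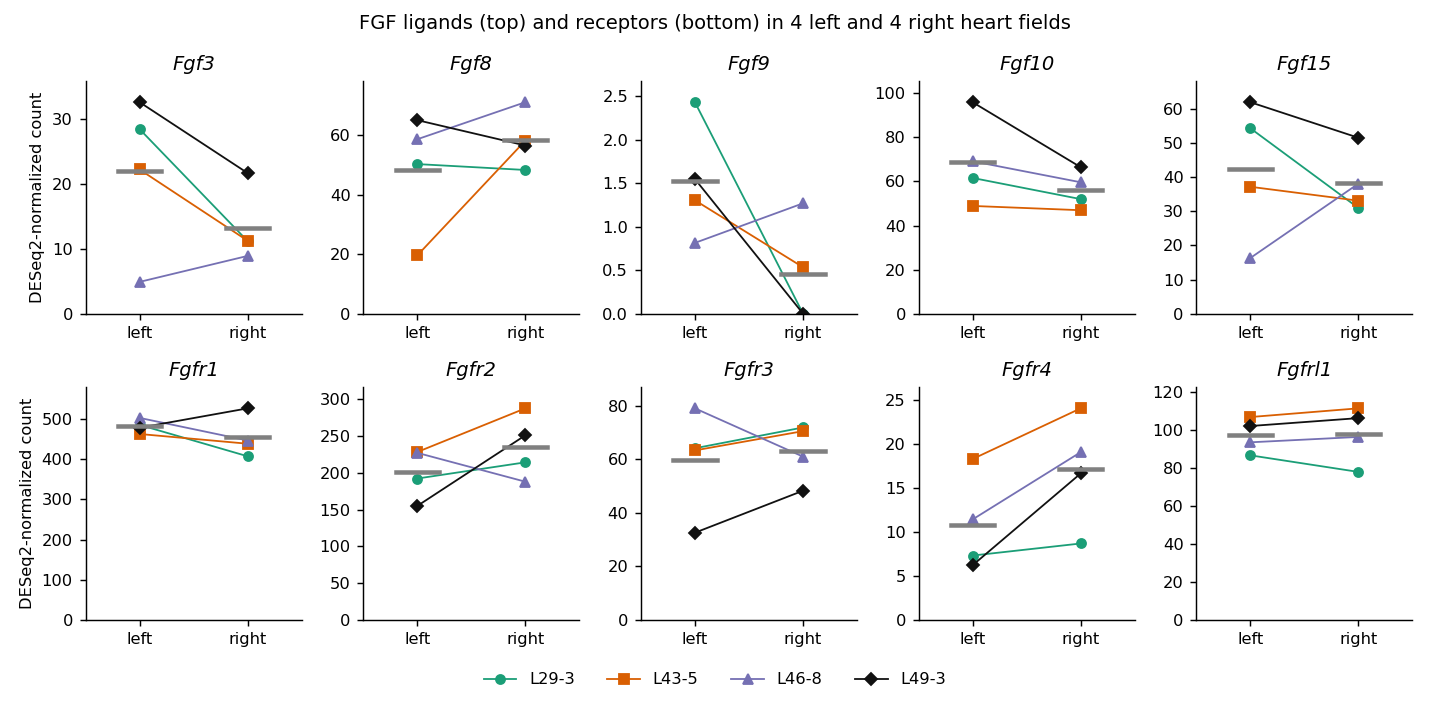
DESeq2-normalized counts of the 10 members on the left and right side (y axes start at 0 and differ between panels). Each line joins the sides of 1 embryo and grey bars are the means of 4 embryos. The left value of *Fgf10* exceeds the right one in 4 of 4 embryos, and the values of the sides overlap in every panel.

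*Fgf3* encodes a ligand made in pharyngeal and neural epithelia, and it had 146 reads over the 8 libraries. On the left it had 28.4 (L29-3), 22.2 (L43-5), 4.88 (L46-8) and 32.5 (L49-3) normalized counts. On the right it had 11.1, 11.2, 8.88 and 21.6 in the same order. Its left level was above the right one in 3 of 4 embryos and below it in L46-8, where the left side had only 6 reads and the right 7, and the ranges of the sides overlapped. The fitted log2 difference was 0.73 with a standard error of 0.333, or 1.66-fold, with unadjusted p = 0.0490 and adjusted p = 0.987 in edgeR's quasi-likelihood test. The gene had entered the test through 3 left libraries and 1 right library with 20 or more normalized counts, so the filter itself drew on its left values. With L29-3 left out the log2 difference was 0.50 (unadjusted p = 0.248, edgeR), and with L43-5 or L49-3 left out the gene no longer met the filter. With L46-8 left out it was 0.97 (unadjusted p = 0.00920, edgeR). Neither DESeq2 (unadjusted p = 0.233) nor limma-voom (unadjusted p = 0.0639) placed it past the threshold. The exact sign-flip test over the 4 embryos gave p = 0.375, where 0.125 is the smallest value that 4 embryos allow.

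*Fgf15*, the neighbour of *Fgf3* on chromosome 7, had its lowest and its highest level in the same libraries. On the left it had 54.3 (L29-3), 37.2 (L43-5), 16.3 (L46-8) and 61.9 (L49-3) normalized counts, and on the right it had 30.9, 33.1, 38.1 and 51.5. The left library of L46-8 was the lowest of all 8 for both ligands and the left library of L49-3 the highest. Like *Fgf3*, *Fgf15* had more on the left in 3 of 4 embryos and less in L46-8. The counting interval of a single embryo lay above equal levels in L29-3, with a log2 ratio of 0.80 (95% exact binomial interval 0.14 to 1.54), and below them in L46-8, with −1.19 (−2.13 to −0.37). EdgeR fitted a log2 difference of 0.08 ± 0.272 (SE), with a 95% interval of −0.51 to 0.67, and it turned to −0.17 without L29-3. The annotation has 761 exon bases of *Fgf15* in common with the antisense gene *Gm26793*, which had 21 reads in all, and the strand setting of the counting is not given in the sources used here, so a part of the reads may belong to either gene.

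Both ligands were set beside the neural tube markers, since the neural tube also makes them. The set of 9 neural tube markers gave left and right sums of 230 and 163 CPM (L29-3), 156 and 262 CPM (L43-5), 87.7 and 251 CPM (L46-8), and 359 and 439 CPM (L49-3). The marker sum was lower on the left in L43-5, L46-8 and L49-3 and the ligands only in L46-8, so the sum and the ligands had opposite sides higher in L43-5 and L49-3. In the left library of L46-8 the sum was, like both ligands, at its lowest, and how much neural tissue adds to the ligands' counts was not tested.

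**Figure D2:**
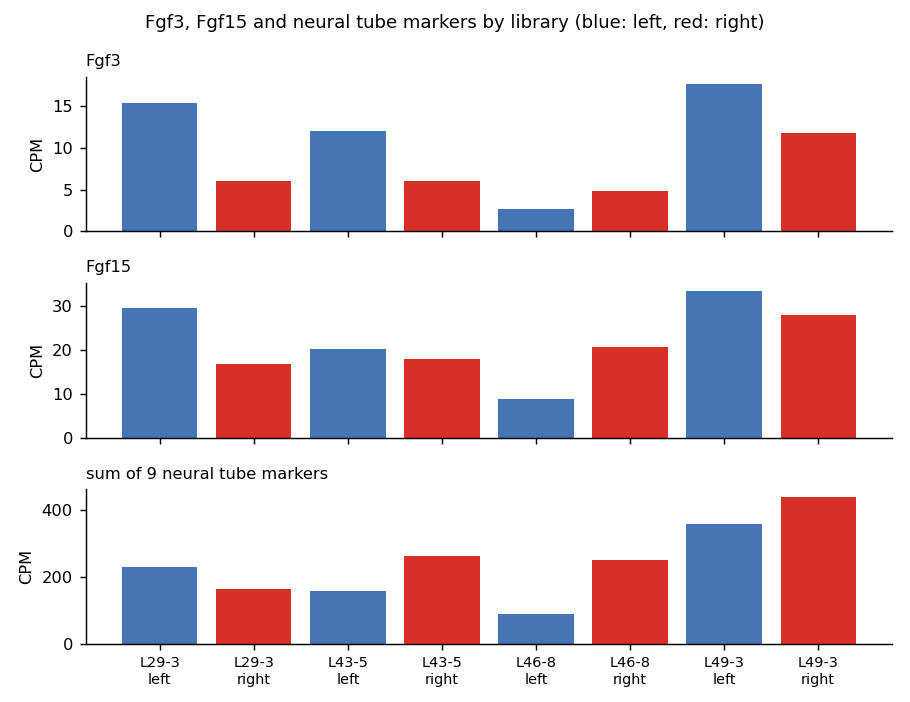
*Fgf3*, *Fgf15* and the summed neural tube markers in each library, in CPM (bars start at 0; blue is left, red is right). The left library of L46-8 is the lowest in all 3 panels, with 2.63 CPM of *Fgf3*, 8.77 CPM of *Fgf15* and 87.7 CPM of the markers.

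*Fgf8*, the ligand of the second heart field and pharynx with a known role in left-right patterning, was not past the threshold. It had 50.3 (L29-3), 19.6 (L43-5), 58.6 (L46-8) and 65.0 (L49-3) normalized counts in the left libraries. The right libraries had 48.3, 58.2, 71.1 and 56.5 in that order. A single library, the left side of L43-5, stood below all the others, with 30 reads against 109 on the right of the same embryo. The same library was also the lowest of the 8 for the summed second heart field markers, with 455 CPM against 648 on the right of L43-5, and for the paraxial mesoderm markers, with 199 CPM against 273. It was the highest of the 8 for the foregut endoderm markers, with 321 CPM against 261 on the right of L43-5. For the surface ectoderm markers it was also the highest, with 1069 CPM against 927. The part of these tissues in the *Fgf8* value was not tested. In that embryo the log2 ratio was −1.53, and its counting interval of −2.21 to −0.98 (95%, exact binomial) did not reach those of the other embryos' ratios, which lay between −0.28 and 0.19. Over all embryos the fitted log2 difference was −0.42 ± 0.254 (SE), with an unadjusted p of 0.120 in edgeR's quasi-likelihood test and a 95% interval of −0.98 to 0.13. Without L43-5 it was −0.03, and *Fgf8* was past the threshold when no filter on low counts was used. The difference of *Fgf8* thus rested on 1 embryo, and 2 of the 4 embryos had a higher level on the left.

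*Fgf10* encodes a ligand of FGFR2 that marks the anterior second heart field. Its left libraries had 61.6 (L29-3), 48.9 (L43-5), 69.2 (L46-8) and 96.0 (L49-3) normalized counts, and its right libraries had 52.0, 47.0, 59.6 and 66.5. The left side was higher in 4 of 4 embryos, by as little as 0.06 on the log2 scale in L43-5 and as much as 0.52 in L49-3, and the ranges of the sides overlapped. In no embryo did the counting interval exclude equal levels. The fitted log2 difference was 0.24 ± 0.152 (SE, unadjusted p = 0.134 in edgeR's quasi-likelihood test), with a 95% interval of −0.09 to 0.58. The exact sign-flip test gave its smallest possible value, p = 0.125.

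The 2 second heart field ligands were also compared with each other. The left-to-right log2 ratio was lower for *Fgf8* than for *Fgf10* in 4 of 4 embryos, with differences of −0.18 (L29-3), −1.59 (L43-5), −0.49 (L46-8) and −0.32 (L49-3). The mean of *Fgf8* minus *Fgf10* was −0.64 ± 0.64 (SD, n = 4; exact sign-flip p = 0.125, the smallest that 4 embryos allow, on log2 values with a pseudocount of 0.5). L43-5 carried much of its size, and without that embryo the mean was −0.33.

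*Fgf9*, a ligand best known from epithelia and the later epicardium, had 9 reads in all. The left libraries held 3, 2, 1 and 1 reads and the right libraries 0, 1, 1 and 0, in the order used above. With 0 reads, a level of up to 2.01 CPM in the right library of L29-3 and 2.71 CPM in that of L49-3 remains possible (3 reads), so a side difference was not detectable at this depth.

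*Fgfr1*, a receptor that most mesoderm cells carry, was the member with the most reads (4056). The left libraries had 486 (L29-3), 463 (L43-5), 503 (L46-8) and 478 (L49-3) normalized counts, and the right libraries had 407, 439, 447 and 527. The left side was ahead in 3 of 4 embryos and behind in L49-3, and the coefficient of variation over 8 libraries was 8.12%, the lowest among the members. For the sides as a whole the log2 difference was 0.09 ± 0.0772 (SE, unadjusted p = 0.253 in edgeR's quasi-likelihood test), with a 95% interval of −0.08 to 0.26, whose upper end is at about 1.2-fold. Stretches of at most 205 bases in its exons match 134 other genes at 90% identity or more, and how the counting treated reads from such repeats is not given in the sources used here.

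*Fgfr2*, the main receptor for FGF10 in epithelia, had 192 (L29-3), 228 (L43-5), 227 (L46-8) and 155 (L49-3) normalized counts in the left libraries. The right libraries had 214, 288, 188 and 251. The left level was below the right in 3 of 4 embryos and above it in L46-8, and the counting interval excluded equal levels in L43-5 (log2 ratio −0.33) and L49-3 (−0.70). In the fit the log2 difference was −0.22 ± 0.125 (SE, unadjusted p = 0.111 in edgeR's quasi-likelihood test). Without L46-8 it was −0.37 with an unadjusted p of 0.00656 (edgeR), which passed the threshold, and without L49-3 it was −0.09. The call therefore depended on which embryos were in the fit.

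*Fgfr3*, which is best known from cartilage and the nervous system, had 64.0, 63.2, 78.9 and 32.5 normalized counts in the left libraries of L29-3, L43-5, L46-8 and L49-3. In the right libraries it had 71.8, 70.4, 60.9 and 48.2. Both libraries of L49-3 were below all the others, and the sides overlapped, with a fitted log2 difference of −0.08 ± 0.167 (SE, edgeR) that was at 0.00281 without L49-3. It shares 998 exon bases with *G630022F23Rik* on the opposite strand, which had 5 reads in all, and a stretch of 497 bases is 92.0% identical to *Nvl*, so reads there are uncertain.

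*Fgfr4*, a receptor of endoderm and muscle progenitors, had too few reads to pass the filter of the main fit, with 132 over all libraries. On the left it had 7.30 (L29-3), 18.3 (L43-5), 11.4 (L46-8) and 6.19 (L49-3) normalized counts, and on the right 8.67, 24.0, 19.0 and 16.6. Every one of the 4 embryos had less on the left, and 12.4% of all tested genes likewise lay in the same direction in all 4. The mean log2 ratio was −0.65 ± 0.48 (SD, n = 4, exact sign-flip p = 0.125, the smallest that 4 embryos allow). With no filter, edgeR fitted a log2 difference of −0.59 (unadjusted p = 0.0745). Without L49-3 the gene passed the filter, with −0.47 (unadjusted p = 0.172, edgeR). The ranges overlapped, and in no embryo did the counting interval exclude equal levels. The ratio was furthest from 0 in L49-3, where the left library had 4 reads and also the lowest sum of cardiomyocyte markers, 419 CPM against 1407 CPM on the right. In L29-3 and L46-8 that sum was higher on the left, at 3579 against 3293 CPM and 2249 against 1227 CPM, while *Fgfr4* was lower on the left. The foregut endoderm sum was lower on the left in L29-3 and L46-8 and higher in L43-5 and L49-3. The paraxial mesoderm sum was lower on the left in L43-5, L46-8 and L49-3 and higher in L29-3. The part of tissue content in the *Fgfr4* values was not tested.

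*Fgfrl1*, the receptor without a kinase, had 86.7, 107, 93.6 and 102 normalized counts in the left libraries and 78.0, 112, 96.4 and 106 in the right libraries, in the order used above. The sides of an embryo were close to each other in all 4, while the embryos ranged from 82.4 in L29-3 to 109 in L43-5 as the mean of their sides. The fitted log2 difference was −0.01 ± 0.117 (SE, edgeR), with a 95% interval of −0.27 to 0.25, which still holds differences of up to about 1.2-fold in either direction.

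**Figure D3:**
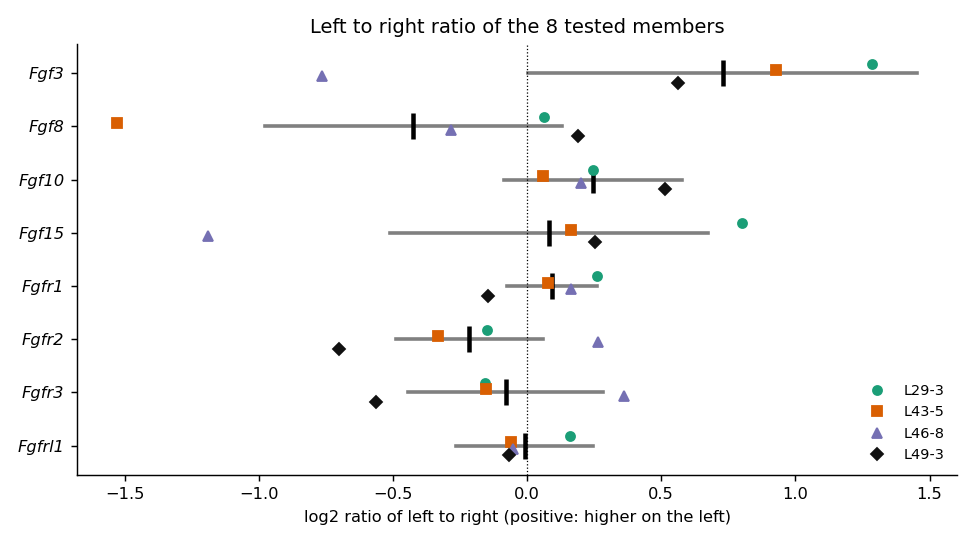
Log2 ratio of left to right for the 8 tested members (x axis; positive means higher on the left). Points are single embryos, the black tick is the edgeR estimate and the grey line its 95% interval. The points of *Fgfrl1* lie within −0.07 and 0.16, whereas those of *Fgf3* run from −0.76 to 1.29 and L43-5 stands apart for *Fgf8* at −1.53.

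Levels were compared between genes per length, as CPM per kilobase of annotated exons averaged over the sides of each embryo. *Fgfr1* was the highest at 25.7 ± 1.44 (SD, n = 4), followed by *Fgf8* at 21.4 ± 4.72 and *Fgfrl1* at 19.0 ± 2.28. *Fgfr2* came next at 11.4 ± 1.39, then *Fgf10* at 7.36 ± 1.67 and *Fgf15* at 7.15 ± 2.23 CPM per kilobase. At the low end were *Fgfr3* at 4.63 ± 1.05, *Fgf3* at 4.09 ± 1.95, *Fgfr4* at 2.13 ± 0.857 and *Fgf9* at 0.115 ± 0.0221 CPM per kilobase. The exact sign-flip test over 4 embryos cannot go below 0.125 (adjusted over 9 pairs, 0.281 at the least), so it could separate no neighbours in this order. Each of the 4 embryos had *Fgfr1* above *Fgf8*, *Fgfrl1* above *Fgfr2*, *Fgfr2* above *Fgf10* and *Fgfr4* above *Fgf9*. *Fgf10* and *Fgf15* could not be ordered, with *Fgf10* higher in 1 of 4 embryos. With the longest transcript as the length in place of all annotated exons, 5 members changed rank. *Fgfr2* (26.6 CPM per kilobase) came before *Fgf8* (24.7) and *Fgfrl1* (22.7), and *Fgf15* came before *Fgf10*. The places of *Fgf8*, *Fgfrl1*, *Fgfr2*, *Fgf10* and *Fgf15* thus depended on the length used.

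**Figure D4:**
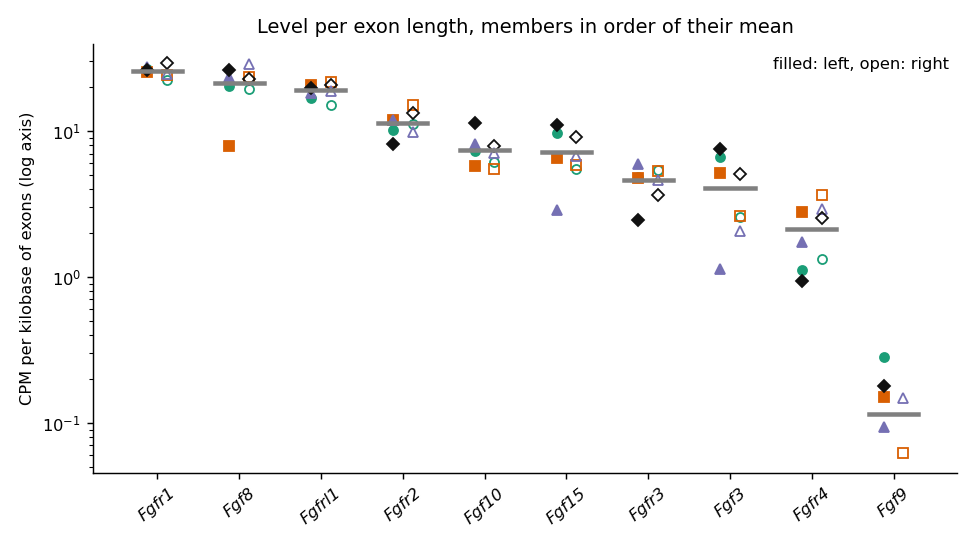
CPM per kilobase of exons for each member (log axis), in order of the mean over 4 embryos (grey bars). Filled points are left libraries and open points right libraries, with colours and shapes for embryos as in the plot of normalized counts; the 2 right libraries with 0 reads of *Fgf9* cannot be drawn on a log axis. *Fgfr1*, *Fgf8* and *Fgfrl1* stand at the top with this length (*Fgfr2* is second with the longest transcript), and the left library of L43-5 is low for *Fgf8*.

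Among the kinase receptors alone, *Fgfr1* made up most of the summed level per kilobase in nearly every library. The left library gave it 62.4% and the right 55.4% for L29-3, with 56.5% and 49.97% for L43-5, 58.4% and 58.5% for L46-8, and 69.5% and 59.9% for L49-3. On average it took 61.7% ± 5.74 (SD, n = 4) of the left and 55.9% ± 4.40 of the right sum, with the left above the right in 3 of 4 embryos and level with it in L46-8 (difference 5.76 percentage points, exact sign-flip p = 0.25). The share of *Fgfr2* came to 24.2% ± 2.21 of the left and 27.5% ± 3.20 of the right sum, and that of *Fgfr3* was 10.3% ± 2.65 and 10.8% ± 2.43. *Fgfr4* took 3.76% ± 1.72 of the left and 5.78% ± 1.94 of the right sum, with less on the left in each of 4 embryos (exact sign-flip p = 0.125). Among the ligands, *Fgf8* made up 47.2% ± 14.3 of the summed level per kilobase on the left and 58.7% ± 5.96 on the right. Paired by embryo, the difference was −11.5 ± 14.5 percentage points (SD, n = 4, exact sign-flip p = 0.25), with the left higher in 1 of 4 embryos.

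**Figure D5:**
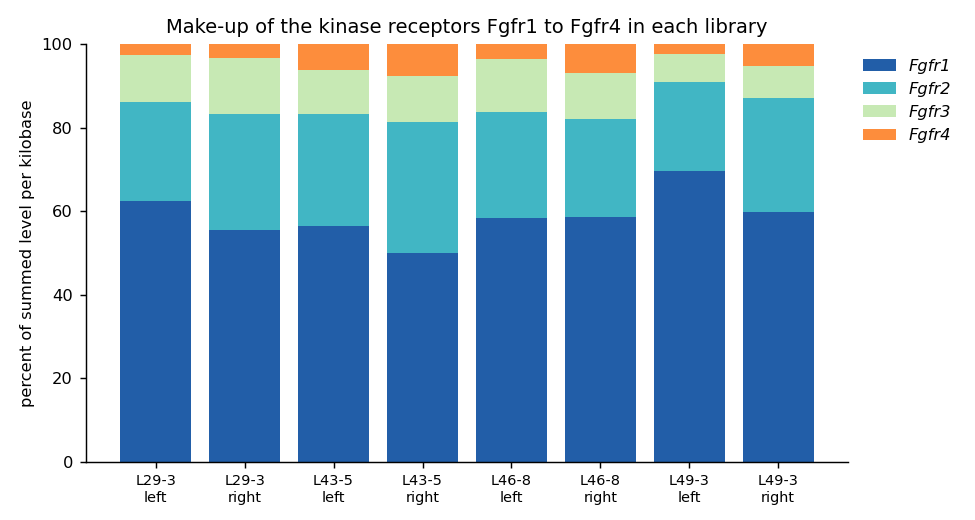
Percent of the summed level per kilobase of *Fgfr1* to *Fgfr4* taken by each receptor, 1 bar per library. *Fgfr1* takes from 49.97% in the right library of L43-5 to 69.5% in the left library of L49-3, and *Fgfr4* takes from 2.51% to 7.63%.

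The embryos were compared in the same fit. In edgeR's test of the embryo terms, 3 of the 8 tested members had an unadjusted p under 0.05, *Fgf3* (0.0163), *Fgf10* (0.0280) and *Fgfr3* (0.0425), beside 9.99% of all tested genes. After Benjamini-Hochberg adjustment none of the 8 passed in that edgeR test, nor in DESeq2 or limma-voom, beside 0.174% of all tested genes. *Fgf3* ranged from 6.88 normalized counts in L46-8 to 27.1 in L49-3, as the mean of both sides. *Fgf10* was also highest in L49-3, at 81.2, but lowest in L43-5, at 47.9. *Fgfr3* went the other way, with 40.4 in L49-3 against 66.8 to 69.9 in the other embryos. Both libraries of L49-3 had the fewest counted reads of the 8. In edgeR's test of the embryo terms, 8 of 8 tested cardiomyocyte and 6 of 7 neural tube markers had an unadjusted p under 0.05. Of the second heart field markers 2 of 9 did, and of the tested foregut endoderm markers 0 of 8. After adjustment, 1 of all these markers passed, a cardiomyocyte one. The part of depth and of tissue content in the members' values was not tested.

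Of 63 other pathway genes tested, 4 were past the threshold (6.35%), beside 3.05% of all tested genes, and none had an adjusted p under 0.05 in edgeR. None of the 13 other secreted FGF ligands reached the filter, the highest being *Fgf4* with a mean of 7.07 normalized counts, and their levels summed to between 8.45 and 15.9 CPM in a library. Of the 4 intracellular FGF homologous factors, which are not secreted, *Fgf13* was tested and rose on the left by 0.48 ± 0.196 on the log2 scale (SE, unadjusted p = 0.0302, adjusted p = 0.987, edgeR), in 4 of 4 embryos. None of the 8 tested co-receptors and binding proteins (of 13) was past the threshold, and *Gpc3*, the glypican with the highest level among them, had a log2 difference of −0.02. Of 12 tested heparan sulphate enzymes (of 13), 1 passed, *Hs6st2*, which adds 6-O-sulphate to the chains and was higher on the left by 0.33 ± 0.125 (unadjusted p = 0.0214, edgeR), in 4 of 4 embryos.

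Downstream of the receptors, none of 25 tested adaptors and RAS-ERK transducers (of 26) passed, with 18 higher and 7 lower on the left and a median log2 difference of 0.04, beside −0.00 for all tested genes. An unadjusted p under 0.05 in edgeR was found for 4 of the 25 (16%), beside 4.36% of all tested genes. These were *Shc1* (log2 difference 0.23), *Cbl* (0.20), *Rps6ka3* (0.18) and *Nras* (0.15), the last being the member of the list with the highest level, all of them under the 1.2-fold limit and with more on the left in each of 4 embryos. Of 17 tested feedback inhibitors and ERK targets (of 20), *Spry2* rose on the left by 0.28 ± 0.119 (unadjusted p = 0.0387, edgeR) in 4 of 4 embryos. *Dusp4*, a phosphatase that inactivates ERK, fell by 0.34 on the log2 scale (SE 0.111, unadjusted p = 0.0108, edgeR) and was lower on the left in 4 of 4. Of the better known FGF targets, *Etv1* had the highest log2 difference of the list, 0.48 ± 0.260 (SE, unadjusted p = 0.0925, edgeR). *Spry1* had a log2 difference of 0.21, *Etv4* of −0.20, *Etv5* of 0.11, *Dusp6* of 0.08 and *Spry4* of 0.03. Neither *Etv1* nor any of these passed the threshold. The median over the 17 was 0.08, and the adjusted p of all genes named here was 0.987 or more in edgeR's quasi-likelihood test.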

How the data were processed

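The 8 libraries were oriented poly(A) RNA-seq libraries of single embryos. The authors aligned reads with HISAT2, removed duplicates and counted reads per gene with featureCounts, and the deposited values used here are those raw counts; strand setting and multi-mapping treatment are not given in the sources used here. From them, counts were tested in edgeR 4.0.16 (quasi-likelihood, TMM scaling, left against right with embryo as a block, Benjamini-Hochberg adjustment over 9744 genes). Left and right of a number come from the same animal. Deviations from the side means correlated by −0.02 to 0.44 within embryos and by −0.39 to 0.26 between them. The lowest value within an embryo was that of L46-8. Its left side correlated by 0.26 with the right side of L29-3, by 0.23 with that of L43-5 and by −0.36 with that of L49-3. CPM are scaled to the TMM-adjusted reads on tested genes. Positions and lengths came from GENCODE M21. Alternatives used DESeq2 1.42.0, limma 3.58.1, other scalings and filters, no block, and each embryo left out. Scripts were tested on simulated data. Libraries held 1147446 to 3520753 counted reads after duplicate removal, and intervals for single embryos cover counting error only. The paper removed duplicates because their number was high, so these totals are lower than the number of reads sequenced. Levels and shares rest on these counts. Members, gene lists and the rule for named genes (all members, pathway list genes past the threshold or, where a list had none, its highest gene) were chosen with earlier results of these data known. *Shc1*, *Cbl*, *Rps6ka3*, *Etv1*, *Spry1*, *Etv4*, *Etv5*, *Dusp6* and *Spry4* were picked after their values were seen.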

Additional observations from a re-analysis of the deposited data

Results flagged for a closer look

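The log2 ratio of left to right of *Fgfrl1* in embryo L29-3, 0.157849, stood apart from those of the other embryos, which lay between −0.0662 and −0.0515. It rested on 107 left and 63 right reads, and its counting interval (95%, exact binomial, −0.30 to 0.63) held all the others. Chance alone marks about 1 in 20 groups of 4 in this way, and 1 of the 38 groups looked at was marked.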

How the results depend on the processing

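The 297 genes past the threshold became 687 with no filter and 56 with DESeq2. The number of members past it, 1 as reported (*Fgf3*), was 2 with no filter (*Fgf3* and *Fgf8*), and 0 with at least 10 counts in every library, with DESeq2 and with limma-voom. Without the replicate block that pairs the sides of an embryo it was 0 (*Fgf3* log2 0.75, unadjusted p = 0.138, edgeR), and leaving out 1 embryo gave 0 to 2 (*Fgf3* and *Fgfr2* without L46-8). Between embryos, the members with an adjusted p under 0.05 went from 0 to 1 with no filter (*Fgf3*, adjusted p = 0.0326, edgeR). In the order of levels per kilobase, 5 members changed rank with the longest transcript as length, and 0 to 4 with 1 embryo left out. The side difference changed sign for *Fgfrl1* with library size alone (0.00295) and with no filter (0.00466), and over single embryos left out it ran from −0.0565 to 0.0163 for *Fgfrl1*, from −0.17 to 0.39 for *Fgf15* and from −0.24 to 0.00281 for *Fgfr3*. The cause was not tested. The adjusted p of *Fgf3* between sides was 0.956 at the least over its alternatives. With 6 to 35 reads of *Fgf3* per library, the number of reads left after duplicate removal limits the low members most.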
